A study of Mus musculus with 3 samples.

Results

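The cytochrome P450 genes of families 1 to 3, which encode the enzymes that oxidize drugs, steroids and other foreign or endogenous compounds in the liver, were examined in hepatocyte nuclei of mouse liver. Members were the 61 genes, of 32285 features in the count tables, whose symbol began with Cyp1, Cyp2 or Cyp3 followed by a letter, leaving out pseudogene symbols that end in -ps. Family 1 held 3 members, family 2 held 49 and family 3 held 9, in 17 subfamilies. A UMI, the count of a distinct captured RNA molecule, was found for 54 members in hepatocyte nuclei of at least 1 library. The other 7 (Cyp2b19, Cyp2b23, Cyp2c65, Cyp2j7, Cyp2w1, Cyp3a41a and Cyp3a41b) had 0 UMIs in each library. At a limit of 3 counts, this allows up to 0.0677, 0.0739 and 0.0610 CPM (UMIs scaled to a class total of 1000000) in the 3 libraries. The limit takes each read as assignable to 1 gene.

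The nuclei came from frozen liver of male C57BL/6N mice that were 8 weeks old at the start, with 1 library for each of 3 groups. The SD group ate the standard diet. The MASLD group ate a diet for metabolic dysfunction-associated steatotic liver disease for 18 weeks, with glucose at 18.9 g/L and fructose at 23.1 g/L in the drink. The Aza-TdC group had that diet and drink and also received 5-Aza-4′-thio-2′-deoxycytidine, a deoxycytidine analogue known to lower DNMT1, at 2 mg/kg by daily gavage from week 14 to week 18. The sources used here do not give the animals behind a library, so differences between libraries have no replicate check. Intervals are 95% intervals that cover counting error only.

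P450 enzymes of these families sit in the endoplasmic reticulum, carry haem and take electrons from the reductase encoded by Por. Nuclear receptors set many of their transcripts: CAR (Nr1i3) and PXR (Nr1i2) answer to drugs and bile acids, and AHR (Ahr) to aromatic compounds. Many of them are most abundant in hepatocytes around the central vein, the pericentral zone, and some mouse members differ between the sexes under the pattern of growth hormone release.

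Hepatocyte nuclei numbered 6857 for SD, 5859 for MASLD and 6687 for Aza-TdC, or 96.0%, 87.1% and 88.1% of the nuclei kept, with between 40573075 and 49209575 UMIs per library. Their median mitochondrial share was 0.124%, 0.187% and 0.0811% of UMIs, and between 9 and 15 cell barcodes were shared by each pair of libraries. Clusters were made without the member genes, and most hepatocyte clusters came from 1 library, so the comparisons below set different numbered clusters side by side: 0 to 3 and 6 held most SD nuclei, 15 and 16 most MASLD nuclei, and 13, 18 and 19 most Aza-TdC nuclei. Cluster 16 held 3003 MASLD nuclei, 51.3% of that library's class, and had Cidea and the T cell marker Themis among its 10 leading genes. Themis stood at 95.2 CPM in cluster 16, 108.5 in hepatocyte cluster 14 and 788.8 in cluster 7 of T and natural killer cells. In the other hepatocyte clusters it lay between 0.479 and 59.98 CPM. Apob stood at 991 CPM in cluster 16 and 624 in cluster 7, and Alb at 3705 and 4916 CPM. The source of Themis in cluster 16 was not tested. Cluster 16 made up 1586 of the 1953 nuclei in the pericentral zone of the MASLD library and 76 of the 1953 in the periportal zone. Values without it stand beside many, not all, results below whose call or direction then turned. Of the 2856 MASLD nuclei then left, 2433 were in cluster 15, and zones were cut anew among them. Leaving it out thus changes the zone mix of MASLD alone, so zone and library cannot be told apart in those values. Clusters 10 and 12, with 340 and 162 nuclei mostly from MASLD and Aza-TdC, stayed without a name and outside the class. Summed member levels in endothelial-like, stellate-like and macrophage-like nuclei, which should hold little of them, were between 0.260 and 0.566 of the hepatocyte level, and the part of RNA free in the droplets in the results was not tested.

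Starting regions of 8 members are shown. The pairs Cyp2a4 with Cyp2a5 and Cyp2b9 with Cyp2b10 differ in the results. The pair Cyp2c37 with Cyp2c50 is alike in its zone pattern, though its log2 ratios of MASLD to SD were 0.23 and -0.29. Cyp2c38 and Cyp3a11 were called with many UMIs. The regions are RefSeq promoter windows of build GRCm38.p6. They run from 250 bases before to 50 bases after the start of each gene, written 5′ to 3′ on the gene's strand. Capitals mark TATAAA on the gene's strand, and AGGTCA, a core motif of nuclear receptors, or GTTAAT, a core motif of HNF1, on either strand. The windows of Cyp2b10, Cyp2c37 and Cyp2c50 hold none of them. No marked motif overlaps another.
Cyp2a4 (chr7:26306942-26307241, plus strand): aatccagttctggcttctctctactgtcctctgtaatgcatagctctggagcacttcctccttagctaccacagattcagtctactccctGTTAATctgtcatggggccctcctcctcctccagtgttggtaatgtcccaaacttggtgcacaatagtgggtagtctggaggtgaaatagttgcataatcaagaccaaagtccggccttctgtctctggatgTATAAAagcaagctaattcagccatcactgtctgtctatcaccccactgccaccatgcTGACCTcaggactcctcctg
Cyp2a5 (chr7:26835089-26835388, plus strand): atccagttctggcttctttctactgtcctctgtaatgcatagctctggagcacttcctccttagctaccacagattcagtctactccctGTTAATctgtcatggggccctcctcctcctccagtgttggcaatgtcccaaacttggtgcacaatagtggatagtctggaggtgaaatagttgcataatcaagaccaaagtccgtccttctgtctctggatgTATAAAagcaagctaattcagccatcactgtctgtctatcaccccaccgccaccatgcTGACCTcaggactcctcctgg
Cyp2b9 (chr7:26173159-26173458, plus strand): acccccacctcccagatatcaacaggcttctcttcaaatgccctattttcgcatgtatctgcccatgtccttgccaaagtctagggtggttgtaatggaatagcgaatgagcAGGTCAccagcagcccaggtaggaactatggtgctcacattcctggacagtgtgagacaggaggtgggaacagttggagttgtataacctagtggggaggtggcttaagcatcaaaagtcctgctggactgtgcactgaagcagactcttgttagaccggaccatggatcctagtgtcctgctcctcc
Cyp2b10 (chr7:25897408-25897707, plus strand): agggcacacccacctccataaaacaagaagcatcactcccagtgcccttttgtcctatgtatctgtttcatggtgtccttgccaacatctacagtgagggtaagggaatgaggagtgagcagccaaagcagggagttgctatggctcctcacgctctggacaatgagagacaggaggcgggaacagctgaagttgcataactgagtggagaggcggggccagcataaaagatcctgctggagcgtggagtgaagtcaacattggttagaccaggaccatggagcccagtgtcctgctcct
Cyp2c37 (chr19:39992174-39992473, plus strand): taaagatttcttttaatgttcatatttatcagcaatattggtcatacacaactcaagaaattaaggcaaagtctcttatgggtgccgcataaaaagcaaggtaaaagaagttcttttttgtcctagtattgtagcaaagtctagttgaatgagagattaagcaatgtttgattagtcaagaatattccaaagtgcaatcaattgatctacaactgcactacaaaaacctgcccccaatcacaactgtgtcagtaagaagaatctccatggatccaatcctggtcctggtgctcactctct
Cyp2c50 (chr19:40089429-40089728, plus strand): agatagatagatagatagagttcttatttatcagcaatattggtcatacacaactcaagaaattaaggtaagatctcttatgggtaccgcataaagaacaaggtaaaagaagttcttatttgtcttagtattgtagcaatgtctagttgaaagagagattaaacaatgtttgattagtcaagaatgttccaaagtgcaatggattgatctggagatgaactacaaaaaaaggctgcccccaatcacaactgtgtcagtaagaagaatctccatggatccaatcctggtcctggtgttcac
Cyp2c38 (chr19:39463026-39463325, minus strand): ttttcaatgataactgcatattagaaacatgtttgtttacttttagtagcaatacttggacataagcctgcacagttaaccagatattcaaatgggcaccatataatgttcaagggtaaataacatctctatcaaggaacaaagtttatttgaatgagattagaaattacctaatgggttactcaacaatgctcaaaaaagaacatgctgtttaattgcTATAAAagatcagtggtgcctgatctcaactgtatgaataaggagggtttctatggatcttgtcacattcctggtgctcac
Cyp3a11 (chr5:145879805-145880104, minus strand): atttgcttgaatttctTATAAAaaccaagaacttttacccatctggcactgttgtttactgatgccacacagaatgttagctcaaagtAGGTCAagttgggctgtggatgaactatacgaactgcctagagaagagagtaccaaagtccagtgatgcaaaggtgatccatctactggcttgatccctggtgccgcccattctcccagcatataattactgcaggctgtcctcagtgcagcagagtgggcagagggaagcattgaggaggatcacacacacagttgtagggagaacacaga

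Windows were found for 53 of the 61 members. TATAAA stood in 39.6% of the members' windows against 8.32% of all 32851 windows, and AGGTCA in 34.0% against 16.3%. GTTAAT stood in 11.3% of members against 7.10%, the STAT motif TTCNNNGAA on either strand in 3.77% against 8.30%, and a direct repeat of AGGTCA spaced by 1 base in 0 members against 0.0396%. Members held few CG dinucleotides, the target of DNA methylation, with a median of 2 per window against 7 over all windows, and 40 of the 53 held at most 3 against 31.4% of all windows. The windows of Cyp2a4 and Cyp2a5 were identical at 294 of 301 aligned positions, those of Cyp2c37 and Cyp2c50 at 264 of 305, and those of Cyp2b9 and Cyp2b10 at 229 of 314. These matches describe the letters of the windows and were not tested for use in these nuclei.

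Taken over all members, P450 transcripts made up 0.588% of SD, 0.759% of MASLD and 1.02% of Aza-TdC hepatocyte UMIs. The summed level reached 5879 CPM in the SD library, 7589 CPM in MASLD and 10163 CPM in Aza-TdC. The log2 ratio of the sums was 0.37 (0.36 to 0.38) for MASLD to SD and 0.42 (0.41 to 0.43) for Aza-TdC to MASLD. Without cluster 16 these ratios were 0.11 and 0.68. Cyp3a25 alone supplied 19.1%, 27.7% and 30.8% of member UMIs, and without it the ratios were 0.21 and 0.36.

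**Figure D1:**
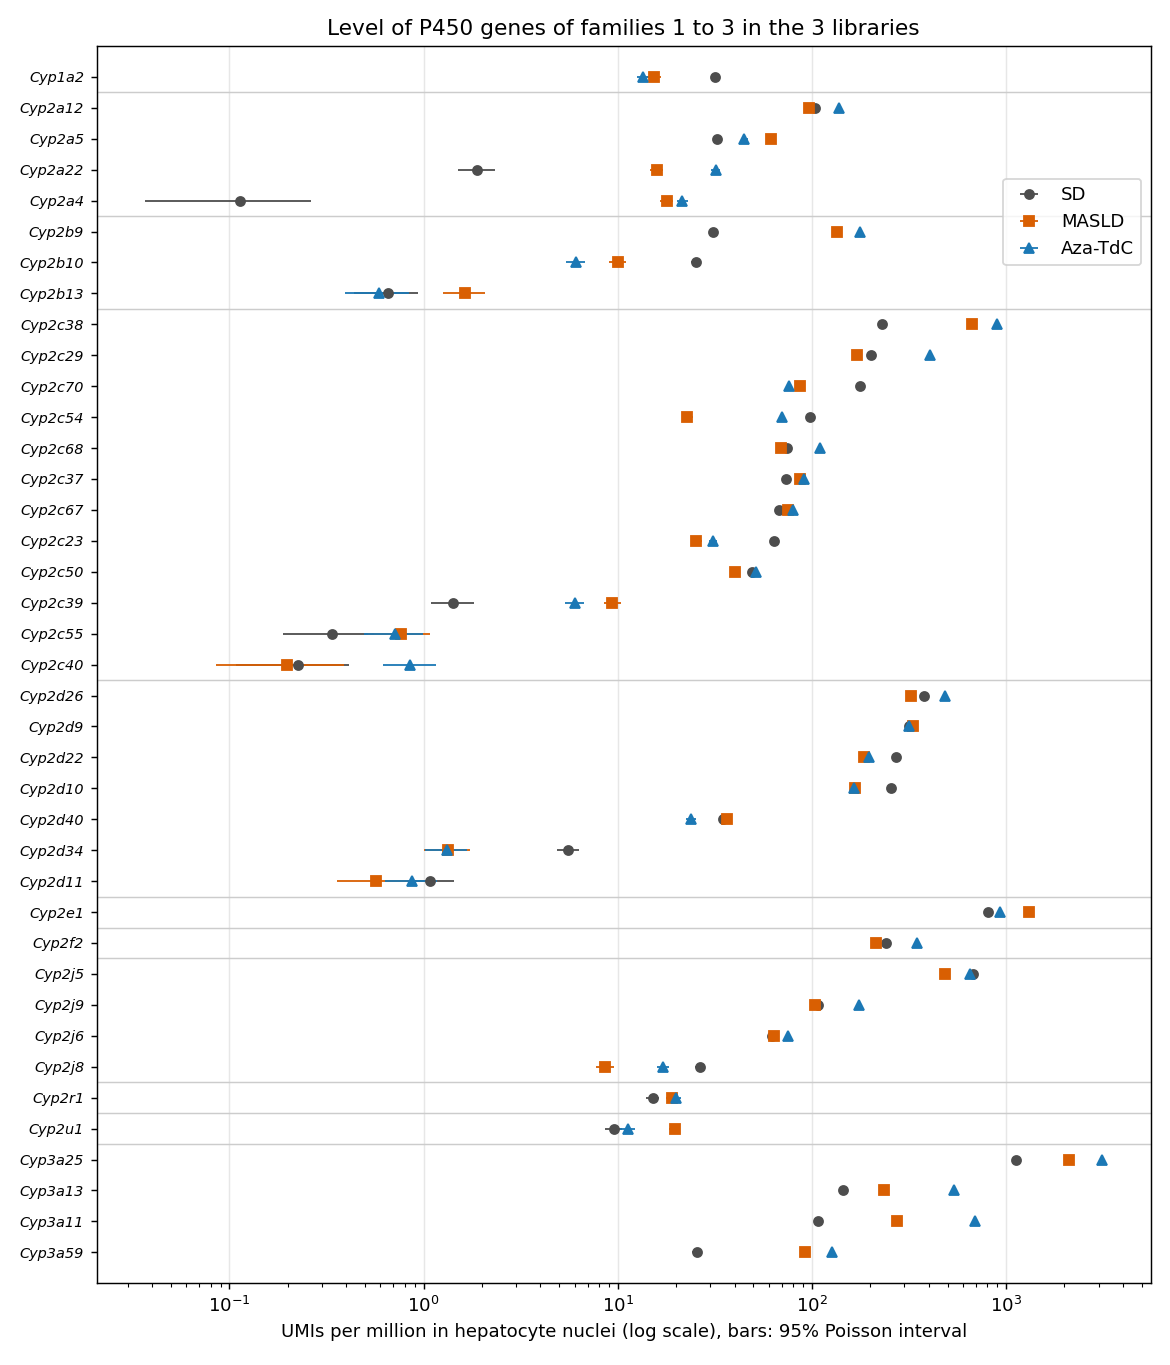
Level of the 39 members with at least 60 UMIs over the 3 libraries, in CPM of hepatocyte nuclei on a log axis, with symbols for SD, MASLD and Aza-TdC and bars for the 95% Poisson interval. Lines part the subfamilies: the Cyp3a members stand in the order SD, MASLD, Aza-TdC, while Cyp1a2, Cyp2b10 and Cyp2c70 are highest in SD.

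Levels between genes were compared per kilobase of gene span, since nuclear RNA holds introns and UMIs may scale with span. Whether introns entered the counting is not given, so this order is tentative. By CPM without that scaling Cyp3a25 led in each library. On that scale Cyp2d26 led in SD at 90.3 CPM per kb, ahead of Cyp2e1 at 71.9, Cyp2d10 at 58.7 and Cyp3a25 at 34.7. In MASLD Cyp2e1 led at 117, followed by Cyp2d26 at 77.4 and Cyp3a25 at 64.8. In Aza-TdC the order was Cyp2d26 at 115, Cyp3a25 at 96.6 and Cyp2e1 at 82.5, with Cyp2d10 at 37.8 and Cyp3a11 at 27.1 CPM per kb next.

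Single members were called higher or lower where the log2 ratio was at least 1 in size and its counting interval excluded 0, where the libraries together held 20 UMIs or more. For MASLD to SD 40 members were measured, of which 10 were higher, beside 12.6% of all genes, and 7 were lower, beside 5.00% of all genes. The members' median log2 ratio was 0.07, with 22 members above and 18 below 0, beside a median of 0.14 over all 15697 genes. Scaling by median ratios in place of totals moves every log2 ratio of MASLD to SD by -0.12. For Aza-TdC to MASLD 43 members were measured, of which 6 were higher, beside 2.85% of all genes, and 2 were lower, beside 4.62%. Their median was 0.28, with 28 members above and 15 below 0, beside a median of -0.09 over all 15851 genes. Both comparisons share the MASLD library, so their ratios are not independent of each other.

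**Figure D2:**
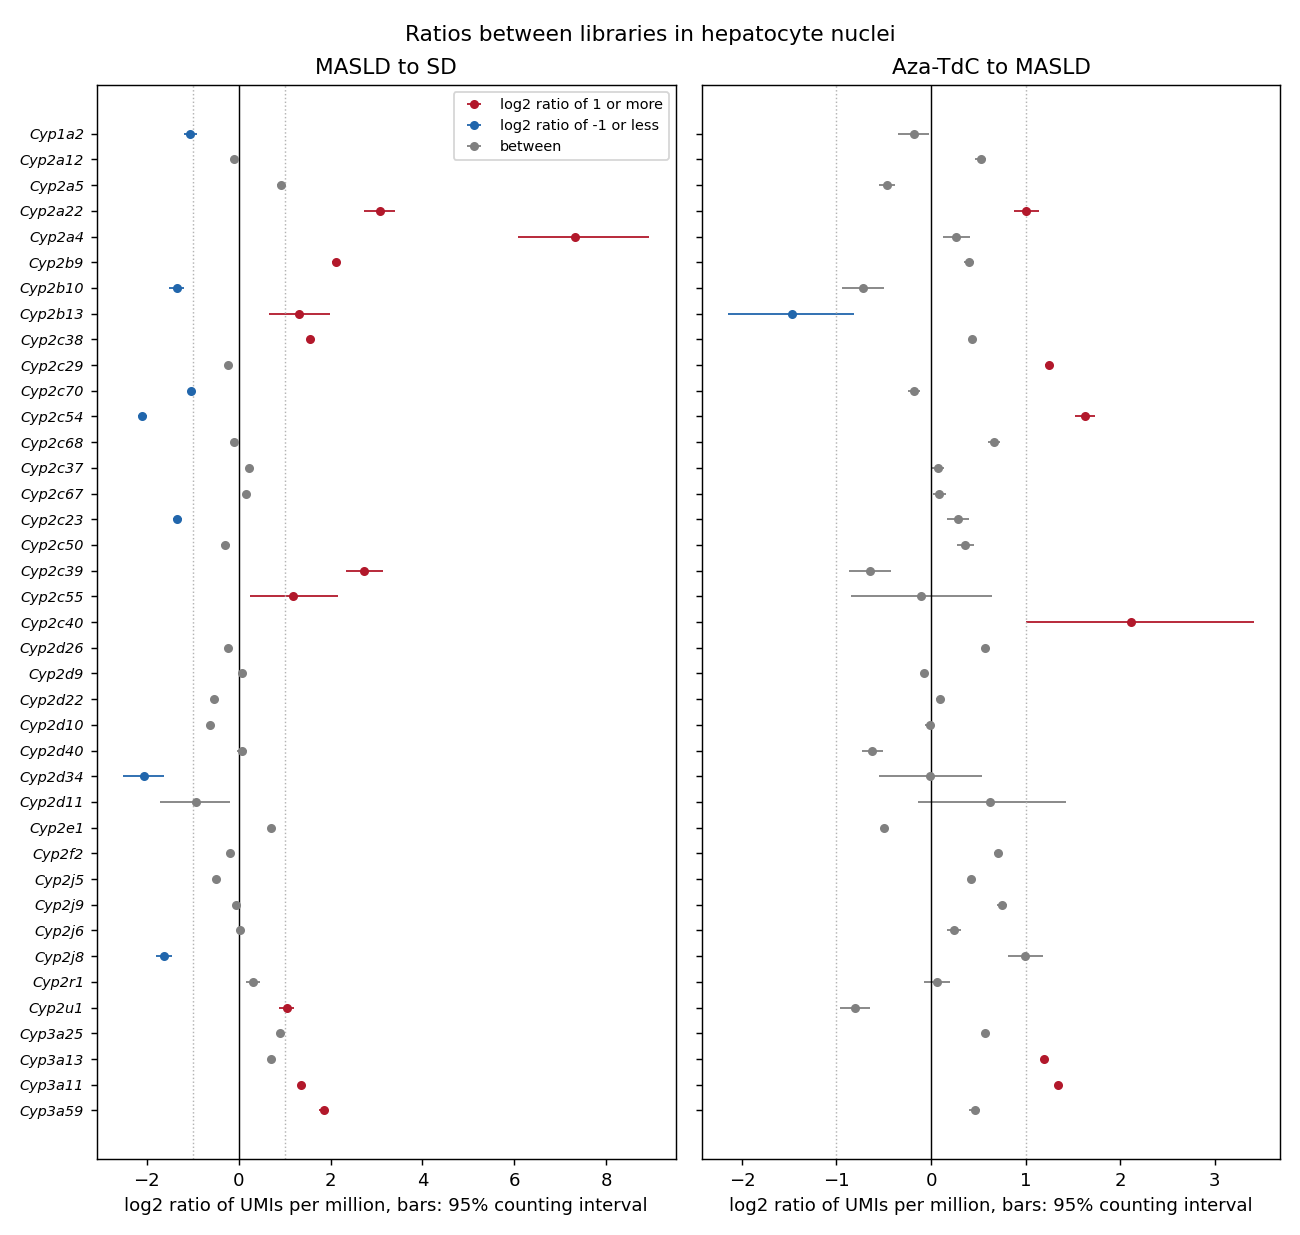
Log2 ratio of CPM in hepatocyte nuclei for MASLD to SD (left) and Aza-TdC to MASLD (right), for the measured members among the same 39, with bars for the 95% counting interval and dotted lines at -1 and 1. Red and blue points passed the call in the higher and lower direction; Cyp2a4 lies at 7.31 on the left and near 0 on the right, and the 3 Cyp3a members with the most UMIs lie right of 0 in both panels.

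In family 1, Cyp1a2, the AHR target that oxidizes caffeine and heterocyclic amines, stood at 31.9 CPM for SD, 15.4 for MASLD and 13.6 for Aza-TdC. It was lower in MASLD by log2 -1.05 (-1.19 to -0.91), and the Aza-TdC library differed little from MASLD at -0.18 (-0.34 to -0.02). Its head-to-head neighbour Cyp1a1 (chr9:57687928-57703824), a further AHR target, was near the detection limit with 17, 21 and 10 UMIs. It was called lower in Aza-TdC at -1.35 (-2.60 to -0.20), a call that was lost without the deepest 6% of nuclei. Cyp1b1 had 0, 0 and 2 UMIs. Of the 3 AHR targets, 1 of 2 measured was thus lower in MASLD, beside 5.00% of all genes. A different 1 of 2 was lower in Aza-TdC, beside 4.62%.

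The Cyp2a genes lie in a block of 13 members of subfamilies 2a, 2b, 2f, 2g, 2s and 2t on chromosome 7 (chr7:25802475-27158668 in GRCm38). Cyp2a4, a testosterone hydroxylase known to be more abundant in female mice, had 5 UMIs or 0.113 CPM in SD against 17.9 CPM in MASLD and 21.6 CPM in Aza-TdC. The log2 ratio of MASLD to SD was 7.31 (6.08 to 8.94), the highest of the members measured. Its level in endothelial-like nuclei was 0, 17.2 and 26.2 CPM, about that of hepatocyte nuclei in MASLD and Aza-TdC. Cyp2a22 stood at 1.89, 15.9 and 31.9 CPM and was called higher in both comparisons, by 3.07 (2.74 to 3.41) and 1.01 (0.87 to 1.14). The second of these calls was lost among nuclei with a mitochondrial share of at most 0.0811%, the lowest library median. That limit kept 1564 SD, 571 MASLD and 3344 Aza-TdC nuclei. Cyp2a5, a coumarin hydroxylase and the close copy of Cyp2a4, stood at 32.6, 62.0 and 44.9 CPM and passed neither call, and reads can be shared between these copies. Cyp2a12, which hydroxylates bile acids, stood at 103, 96.6 and 139 CPM. The subfamily's summed level of 138, 192 and 237 CPM thus hides members that differ widely: without Cyp2a12 the ratios were 1.47 and 0.04.

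Cyp2b9 and Cyp2b10 lie in the same block and went different ways. Cyp2b10, the classical target of CAR induced by phenobarbital, had 25.4 CPM for SD, 9.98 for MASLD and 6.08 for Aza-TdC. It was lower in MASLD by -1.35 (-1.51 to -1.18), a call lost after thinning to 1500 UMIs, at -0.97, and lay at -0.72 (-0.94 to -0.50) for Aza-TdC to MASLD. Cyp2b9, better known from female liver, had 31.0, 134 and 177 CPM. Its ratio of MASLD to SD was 2.11 (2.03 to 2.20), and that of Aza-TdC to MASLD was 0.40 (0.35 to 0.45). Cyp2b13, a further member known from female liver, rested on 29, 66 and 29 UMIs, with ratios of 1.31 (0.66 to 2.00) and -1.46 (-2.15 to -0.81). The first call was lost after thinning. The second, at -0.51, was lost among nuclei with a mitochondrial share of at most 0.0811%, which left 571 MASLD nuclei. Without Cyp2b9 the summed Cyp2b level was lower in both comparisons, at -1.17 and -0.80, against 1.35 and 0.33 with it.

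Among the Cyp2c genes, which include arachidonic acid epoxygenases, 14 members lie in a block on chromosome 19 (chr19:39007019-40187333) and Cyp2c23 lies outside it. Cyp2c38, which metabolizes arachidonic acid, stood at 229, 669 and 901 CPM, a ratio of 1.55 (1.51 to 1.58) for MASLD to SD. That call was lost without cluster 16, at 0.52, and the ratio of Aza-TdC to MASLD was then called, at 1.46 against 0.43 with the cluster. Cyp2c39, known from female liver, stood at 1.42, 9.39 and 5.99 CPM, with ratios of 2.72 (2.34 to 3.13) and -0.65 (-0.87 to -0.42). Without cluster 16 they were 1.58 and 0.49.

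Cyp2c54, a CAR target, had the lowest ratio of MASLD to SD, with 97.3 CPM for SD, 22.8 for MASLD and 70.3 for Aza-TdC. The ratios were -2.10 (-2.20 to -1.99) and 1.63 (1.52 to 1.73), so the gene was lower in MASLD than in the libraries on either side of it. Cyp2c29, a CAR target and epoxygenase, stood at 201, 171 and 405 CPM and was called for Aza-TdC to MASLD, at 1.24 (1.20 to 1.28). Cyp2c70, which makes the muricholic acids of mouse bile, stood at 177, 86.6 and 76.4 CPM, lower in MASLD by -1.03 (-1.09 to -0.97), and Cyp2c23, an epoxygenase, stood at 64.1, 25.5 and 30.9 CPM, lower by -1.33 (-1.44 to -1.23).

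The remaining Cyp2c members differed less or were scarce. Cyp2c37 stood at 73.5, 86.5 and 90.8 CPM, Cyp2c50 at 49.1, 40.1 and 51.5, Cyp2c67 at 67.9, 75.8 and 80.4 and Cyp2c68 at 74.4, 69.7 and 110, with no call in either comparison. Without cluster 16 the ratios of MASLD to SD of Cyp2c37 and Cyp2c67 changed sign, from 0.23 to -0.11 and from 0.16 to -0.39. Cyp2c55 rested on 15, 31 and 35 UMIs and was called higher in MASLD at 1.18 (0.24 to 2.17), which was lost without cluster 16. Cyp2c40 rested on 10, 8 and 42 UMIs and was called higher in Aza-TdC at 2.11 (1.01 to 3.42). Cyp2c66 and Cyp2c69 had at most 11 UMIs in any library. Summed Cyp2c levels were 1035, 1258 and 1825 CPM, with ratios of 0.28 and 0.54 that were -0.33 and 1.15 without cluster 16. With the cluster kept and Cyp2c38 left out they were -0.45 and 0.65.

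The Cyp2d block on chromosome 15 (chr15:82370527-82794294) and the Cyp2j block on chromosome 4 (chr4:96027534-96664154) differed less between libraries. Cyp2d9, a testosterone hydroxylase known to be more abundant in male mice, was nearly level at 317, 333 and 316 CPM, and its small ratios of 0.07 and -0.08 changed sign without cluster 16, to -0.15 and 0.14. Cyp2d26 stood at 379, 325 and 483 CPM, Cyp2d22 at 270, 186 and 198, and Cyp2d10 at 255, 166 and 164. Cyp2d34 was the Cyp2d member called lower in MASLD, with 5.55, 1.33 and 1.32 CPM and a ratio of -2.06 (-2.51 to -1.63). Cyp2d40, at 34.9, 36.7 and 23.8 CPM, had no call. The summed Cyp2d level was 1263, 1048 and 1188 CPM, with ratios of -0.27 and 0.18.

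Cyp2j5, an arachidonic acid epoxygenase, stood at 678, 484 and 649 CPM, and Cyp2j9 at 107, 104 and 174 CPM. Cyp2j8 was lower in MASLD, with 26.5, 8.60 and 17.2 CPM and a ratio of -1.62 (-1.80 to -1.45). Its ratio of Aza-TdC to MASLD of 1.00 (0.81 to 1.18) lay just under the limit of 1 and passed it under 5 alternatives. Cyp2j6 stood at 62.1, 63.7 and 75.4 CPM. Thus in this block Cyp2j8 was the member called, and in the lower direction.

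Of the members that stand alone in their subfamily, Cyp2e1, which oxidizes ethanol and other small molecules, had 809 CPM for SD, 1314 for MASLD and 928 for Aza-TdC. Neither ratio was called, at 0.70 (0.68 to 0.72) and -0.50 (-0.52 to -0.48), and both changed sign without cluster 16, to -0.42 and 0.62. Within the MASLD library the Cyp2e1 level was 1959 CPM in cluster 16 and 340 CPM in cluster 15. Cyp2f2, which activates naphthalene, stood at 242, 213 and 348 CPM, with ratios of -0.18 and 0.70 that were 0.74 and -0.21 without cluster 16. Cyp2r1, a vitamin D hydroxylase, had 15.2, 19.0 and 19.9 CPM. Cyp2u1, a fatty acid hydroxylase, had 9.54, 19.6 and 11.3 CPM, and was called higher in MASLD at 1.04 (0.87 to 1.22), a call lost under 3 alternatives, with 0.82 the lowest value.

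Cyp3a members, the main drug and steroid oxidizing P450 enzymes under PXR, had the largest summed CPM of the subfamilies in each library, with 1404 CPM for SD, 2703 for MASLD and 4492 for Aza-TdC. Summed per kilobase of span, Cyp2d led instead, at 199.7, 157.7 and 192.8 CPM per kb against 44.7, 86.4 and 146.3 for Cyp3a. That order holds only if UMIs scale with span, which was not tested. The ratios of the sums were 0.95 (0.93 to 0.96) and 0.73 (0.72 to 0.74). Cyp3a11, the PXR target used most as a marker, stood at 107, 273 and 693 CPM and was called in both comparisons, by 1.35 (1.30 to 1.40) and 1.34 (1.31 to 1.37). Without cluster 16 the first was 0.67 and no longer called, and the second was 2.02. Cyp3a25 stood at 1126, 2102 and 3131 CPM, with ratios of 0.90 (0.88 to 0.92) and 0.57 (0.56 to 0.59).

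Cyp3a13, which lies apart from the Cyp3a block, stood at 145, 235 and 540 CPM, called for Aza-TdC to MASLD at 1.20 (1.17 to 1.23), or 0.90 and not called without cluster 16. Cyp3a59, at 25.6, 92.5 and 128 CPM, was called for MASLD to SD at 1.85 (1.76 to 1.95). The block on chromosome 5 (chr5:145345279-146113287) holds 8 members, of which Cyp3a11, Cyp3a25 and Cyp3a59 were measured. The other members of the block, among them 4 known from female liver (Cyp3a16, Cyp3a41a, Cyp3a41b and Cyp3a44), had at most 14 UMIs in any library. The counted UMIs behind the higher Cyp3a sums in MASLD and Aza-TdC thus lay in members other than those known from female liver. Reads shared between close copies, such as Cyp3a41a and Cyp3a41b may be, were not examined.

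Members known to be more abundant in female mice form a list that was chosen knowing earlier results of these data. Of 11 listed genes 5 were measured for MASLD to SD. Cyp2a4, Cyp2b9, Cyp2b13 and Cyp2c39 were higher, beside 12.6% of all genes, and Cyp2b10 was lower, beside 5.00%. Their median was 2.11 beside 0.14 over all genes. For Aza-TdC to MASLD 6 were measured, with Cyp2c40 higher, beside 2.85% of all genes, Cyp2b13 lower, beside 4.62%, and a median of -0.19. The Y-linked gene Uty stood at 251, 328 and 334 CPM and Xist at 1.47, 2.56 and 1.95 CPM in the 3 libraries, and the labels name male animals. Cux2, a transcriptional regulator that is female-specific in mouse liver, had 1.65 CPM in SD, 0.148 CPM on 6 UMIs in MASLD and 57.4 CPM in Aza-TdC. Its ratio of Aza-TdC to MASLD was 8.60, and those of the listed members measured lay at 2.11 for Cyp2c40, 0.40 for Cyp2b9, 0.27 for Cyp2a4, -0.65 for Cyp2c39, -0.72 for Cyp2b10 and -1.46 for Cyp2b13.

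Targets of CAR or PXR were called in both directions. Of 7 measured, Cyp2c55 and Cyp3a11 were higher, beside 12.6% of all genes, and Cyp2b10 and Cyp2c54 lower, beside 5.00%, in MASLD than in SD, with a median of -0.23. Neither higher call held without cluster 16, at 1.10 (-0.06 to 2.25) and 0.67, while the lower ratios were then -1.46 and -2.59. For Aza-TdC to MASLD Cyp2c29, Cyp2c54 and Cyp3a11 were higher, beside 2.85% of all genes, none was lower, and the median was 0.36. The transcript of CAR itself, Nr1i3, stood at 1112, 800 and 1181 CPM and that of PXR, Nr1i2, at 419, 395 and 467 CPM. Ahr stood at 99.4, 143 and 162 CPM while its target Cyp1a2 was highest in SD.

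Other genes of the pathway were taken from lists of 15 genes of electron and haem supply and 27 nuclear receptors and factors. Of the former, Pgrmc1, a haem-binding partner of P450 enzymes, at 1.11 and Hmox1, which degrades haem, at 1.66 were higher in MASLD, beside 12.6% of all genes, none was lower, and none was called for Aza-TdC to MASLD. Por, the electron donor, stood at 1554, 1062 and 1104 CPM and Alas1, the first enzyme of haem synthesis, at 2347, 1644 and 1346 CPM, so both were highest in SD while summed P450 transcripts were lowest there. Of 26 measured factors, beside the same share of 12.6% higher and 5.00% lower over all genes, Cebpa at 1.02 and Foxa2 at 1.02 were higher, and Onecut1 at -1.78 and Cux2 at -3.48 lower, in MASLD. In Aza-TdC against MASLD Nr0b2 at 1.00, Esr1 at 1.14 and Cux2 were higher and Onecut1 at -1.31 was lower, beside 2.85% higher and 4.62% lower over all genes. Onecut1, which encodes the liver factor HNF6, stood at 518, 151 and 60.9 CPM, and Hnf4a at 408, 216 and 254 CPM.

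Position in the liver lobule was taken from a score of 10 pericentral markers, such as Glul and Oat, minus 14 periportal markers, such as Hal and Sds, with no member among them. Nuclei of each library were cut by rank into 3 equal groups, here called the periportal, middle and pericentral zone, and a member was called where its pericentral and periportal zones differed by a log2 ratio of at least 1. In SD 15 of 36 measured members were higher in the pericentral zone, beside 3.13% of all genes, and 2 were lower, beside 2.12%. In MASLD 14 of 37 were higher, beside 3.68%, and 4 lower, beside 3.84%. In Aza-TdC 15 of 39 were higher, beside 3.34%, and 3 lower, beside 3.90%. The 8 members known as pericentral passed in each library, with a median of 2.12 for SD, 3.34 for MASLD and 4.08 for Aza-TdC. Between 15.9% and 21.8% of nuclei lay within 0.1 SD of a boundary between zones.

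**Figure D3:**
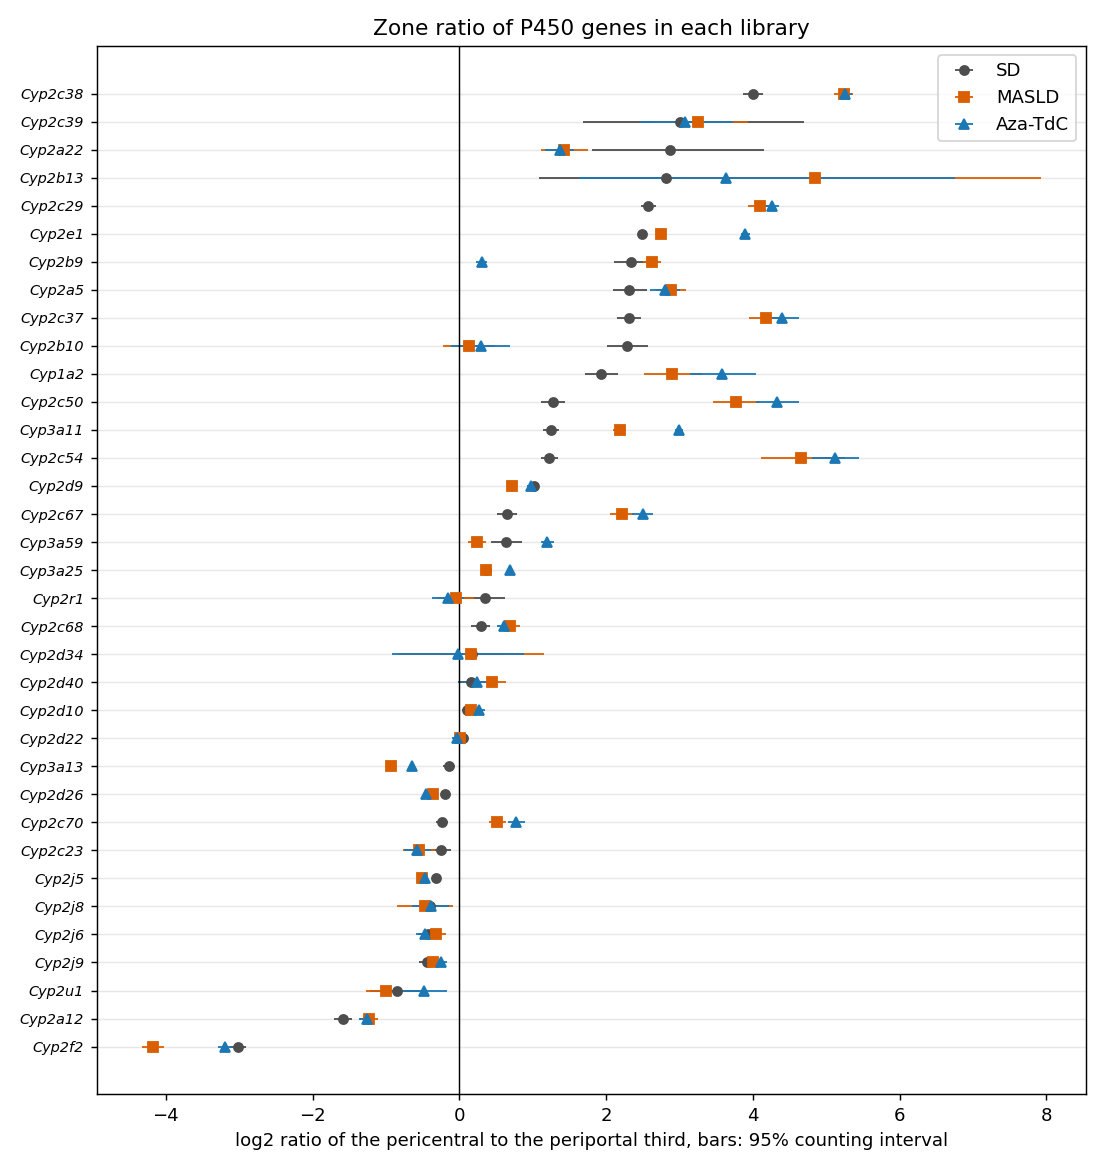
Log2 ratio of CPM in the pericentral to the periportal zone of each library for the 35 members measured in all 3, ordered by the value in SD, with bars for the 95% counting interval. Points right of 0 are pericentral: Cyp2c50, Cyp2c54 and Cyp2c67 lie further right in MASLD and Aza-TdC than in SD, while Cyp2b10 lies near 0 in both and Cyp2b9 near 0 in Aza-TdC.

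The zone ratio of P450 transcripts summed over members was 0.55 for SD, 0.87 for MASLD and 1.09 for Aza-TdC. Most, but not all, of the score's own markers differed more between zones in MASLD than in SD. The periportal marker Gls2 had zone ratios of -1.50, -4.59 and -3.09 and the pericentral marker Slc1a2 5.00, 6.46 and 6.71. With a score from the periportal markers alone, the median zone ratio of the pericentral markers was 2.52, 3.55 and 3.84, and with pericentral markers alone that of the periportal markers was -0.80, -1.88 and -1.16. The part of this in the zone ratios of members was not tested.

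Several neighbours in the Cyp2c block differed in zone ratio between libraries. Of 35 members measured for MASLD against SD 6 were more pericentral by at least 1, beside 1.17% of all genes, and these were Cyp2c29, Cyp2c37, Cyp2c38, Cyp2c50, Cyp2c54 and Cyp2c67. The difference was largest for Cyp2c54 among the members measured, whose zone ratio was 1.23 for SD, 4.66 for MASLD and 5.12 for Aza-TdC, a difference of 3.43 (2.88 to 3.99) between MASLD and SD. In SD it stood at 57.5, 96.6 and 134 CPM from the periportal over the middle to the pericentral zone, in MASLD at 2.11, 11.6 and 53.3 CPM and in Aza-TdC at 5.13, 24.1 and 179 CPM. The ratio of MASLD to SD was accordingly -4.77 in the periportal zone and -1.33 in the pericentral zone.

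Cyp2c50 and Cyp2c37, which flank Cyp2c54 on the chromosome, had the same form with little difference in the whole class. The zone ratio of Cyp2c50 was 1.28, 3.77 and 4.33, with 28.3, 48.7 and 68.5 CPM over the zones in SD and 6.71, 19.8 and 91.7 CPM in MASLD. The zone ratio of Cyp2c37 was 2.31, 4.18 and 4.40, with 26.3 CPM in the periportal zone of SD and 10.9 CPM in that of MASLD. For MASLD to SD Cyp2c50 therefore stood at -2.08 in the periportal and 0.42 in the pericentral zone, and Cyp2c37 at -1.27 and 0.60.

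The zone ratio of Cyp2c67 was 0.65, 2.22 and 2.50, that of Cyp2c29 2.57, 4.10 and 4.26, and that of Cyp2c38 4.00, 5.24 and 5.26. For Cyp2c38 the difference of 1.23 between MASLD and SD was -0.32 with a score from pericentral markers alone, and for Cyp2c29 the difference of 1.53 was then 0.85 and not called. The differences of Cyp2c37, Cyp2c50, Cyp2c54 and Cyp2c67 were called under all alternatives to the processing. Over the alternatives to the processing the zone ratio of Cyp2c54 lay between 0.83 and 1.46 in SD and between 3.56 and 5.06 in MASLD, and that of Cyp2c50 between 2.99 and 4.33 in MASLD. After thinning to 1500 UMIs the SD ratio of Cyp2c50 was 0.70 and no longer called. Not all members of the block shared this: Cyp2c68 had 0.29, 0.70 and 0.61, and Cyp2c70 had -0.24, 0.52 and 0.78. Cyp2c23, outside the block, had -0.25, -0.55 and -0.57.

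**Figure D4:**
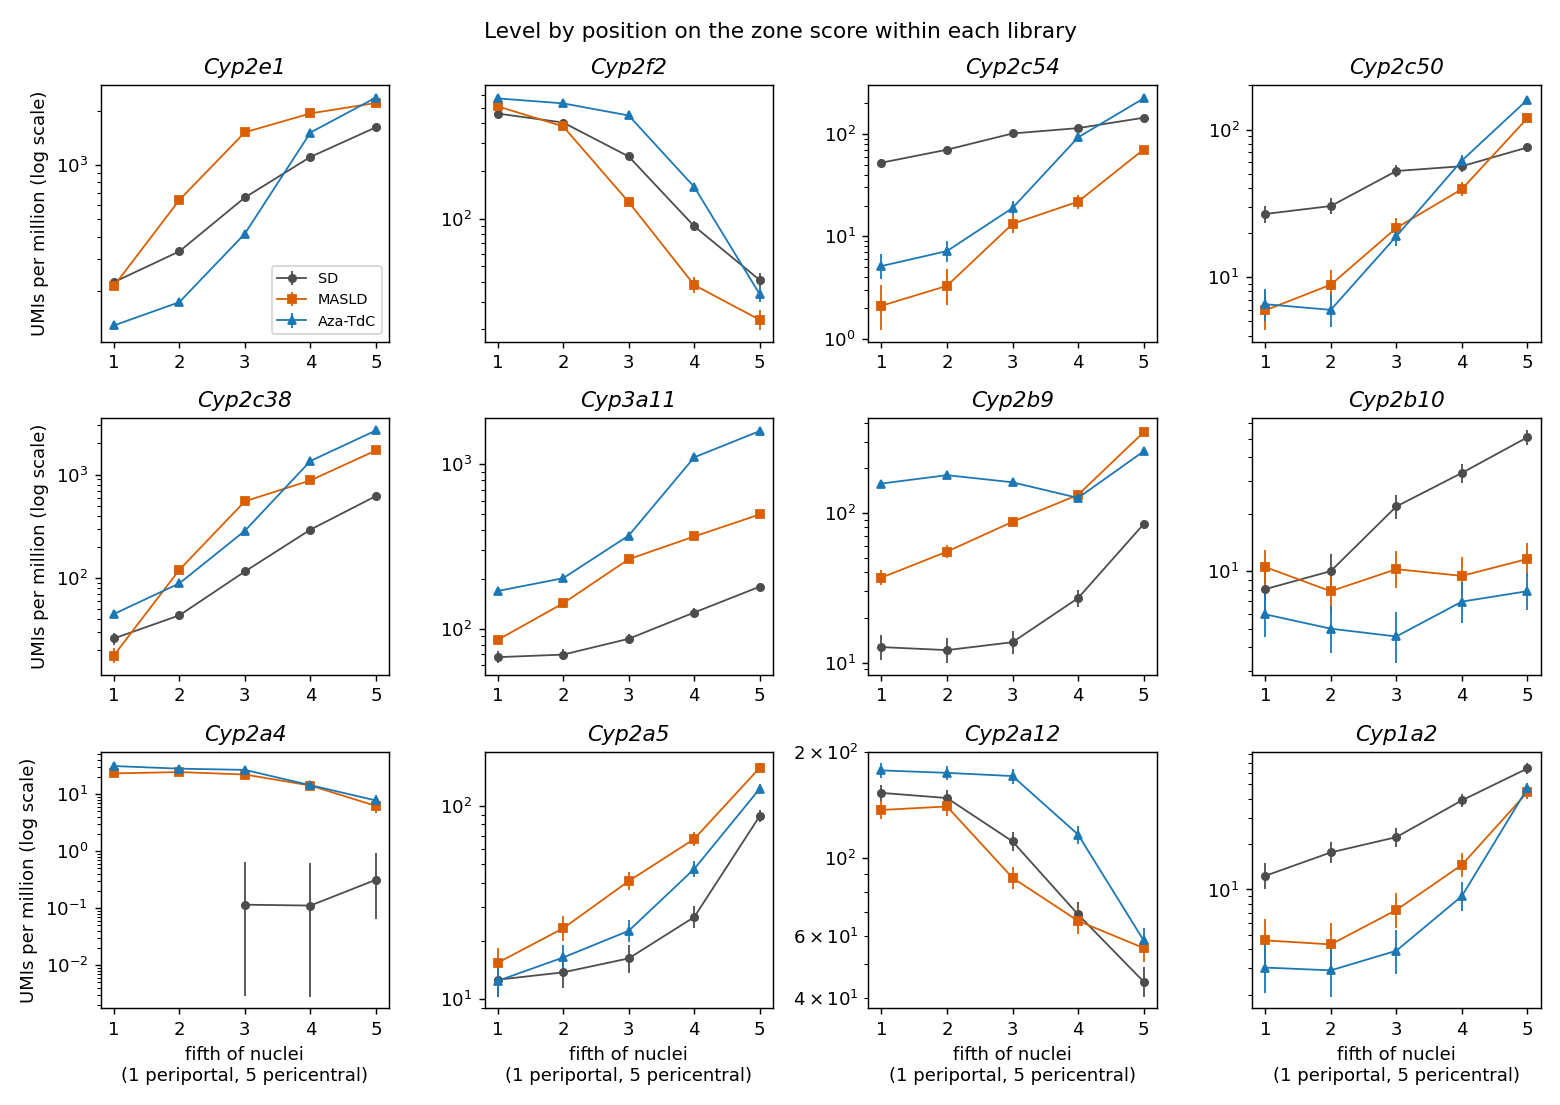
CPM on a log axis of 12 members over 5 equal groups of nuclei ranked by the zone score, from periportal (1) to pericentral (5), in SD, MASLD and Aza-TdC, with bars for the 95% Poisson interval. Cyp2c54 and Cyp2c50 slope more steeply in MASLD and Aza-TdC than in SD, Cyp2b10 is flat in both, and Cyp2a4 slopes the other way from Cyp2a5.

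Other pericentral members kept a slope in each library. Cyp2e1 stood at 257, 670 and 1446 CPM over the zones in SD, at 313, 1475 and 2115 in MASLD and at 142, 488 and 2124 in Aza-TdC. Its zone ratio of 2.49, 2.76 and 3.90 made it the 1 member of 37 that was more pericentral in Aza-TdC than in MASLD by at least 1, at 1.14 (1.07 to 1.22), beside 1.20% of all genes. That call was lost under 3 alternatives, with 0.63 the lowest value. The pericentral zone was level between these libraries, at 0.01, while the periportal and middle zones stood at -1.14 and -1.59. Cyp3a11 had zone ratios of 1.25, 2.19 and 2.99, with 160, 452 and 1464 CPM in the pericentral zone. Cyp1a2 had 1.93, 2.90 and 3.57, with 54.8, 34.3 and 33.0 CPM there. Ahr was itself pericentral, at 2.42, 2.97 and 3.50, and so was Nr1i3, at 1.32, 1.93 and 1.63.

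Cyp2b10 had little slope in MASLD and Aza-TdC, and Cyp2b9 had little in Aza-TdC alone. Cyp2b13, on few UMIs, was pericentral in each library, at 2.81, 4.84 and 3.63. Cyp2b10 was pericentral in SD, with 9.02, 21.5 and 44.1 CPM over the zones, and flat in MASLD, with 9.72, 9.54 and 10.7 CPM. Its zone ratio was 2.29, 0.13 and 0.29, a difference of -2.16 (-2.59 to -1.72) between MASLD and SD. Its lower level in MASLD lay in the pericentral zone and in the middle zone, at 9.54 against 21.5 CPM in the latter. The ratio of MASLD to SD was -2.05 in the pericentral and 0.11 in the periportal zone. With Cyp2a22 and Cyp2f2, Cyp2b10 was 1 of 3 members more periportal in MASLD than in SD by at least 1, beside 2.03% of all genes. Without cluster 16 the difference of Cyp2f2 turned from -1.15 to 1.91 and that of Cyp2a22, at -1.05, was not called, while that of Cyp2b10 was -2.64.

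Cyp2b9 kept its slope in MASLD, with 43.9, 82.3 and 271 CPM, but was near level in Aza-TdC, with 169, 152 and 209 CPM. Its zone ratio was 2.34, 2.62 and 0.31, a difference of -2.32 (-2.46 to -2.17) between Aza-TdC and MASLD, and it was the 1 member of 37 more periportal in Aza-TdC by at least 1, beside 0.874% of all genes. Aza-TdC to MASLD stood at 1.95 in the periportal zone and -0.37 in the pericentral zone. Over the alternatives its zone ratio in Aza-TdC lay between 0.28 and 0.71.

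**Figure D5:**
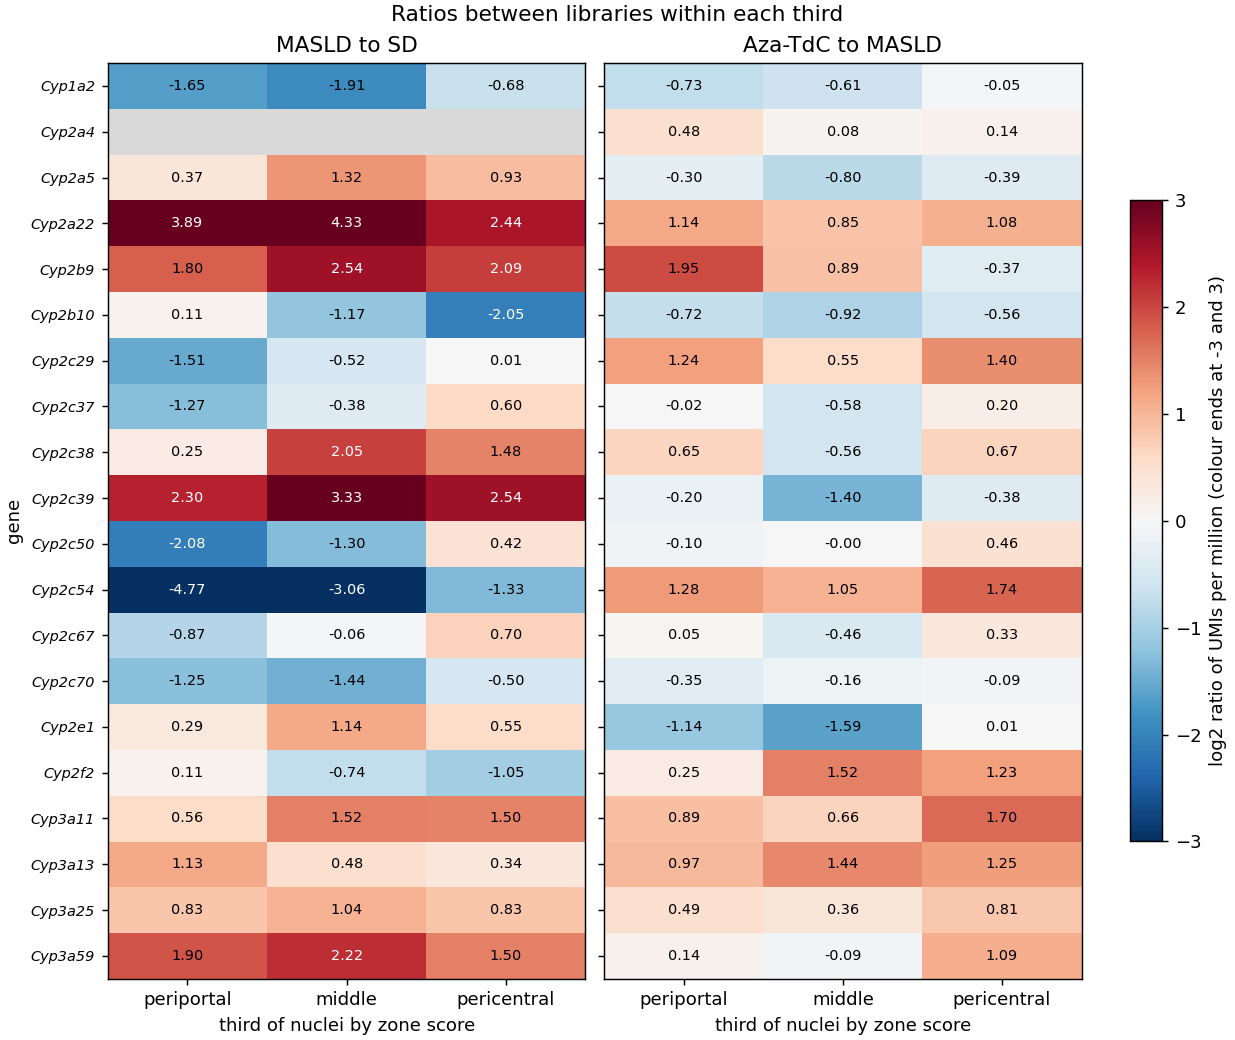
Log2 ratio of CPM for MASLD to SD (left) and Aza-TdC to MASLD (right) within the periportal, middle and pericentral zone of hepatocyte nuclei, for 20 members in colour with the value in each cell. Grey cells have fewer than 5 UMIs in a library; the Cyp2b9 row on the right runs from 1.95 to -0.37 and the Cyp2c54 row on the left from -4.77 to -1.33.

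On the periportal side, Cyp2f2 had zone ratios of -3.02, -4.17 and -3.19, with 441, 475 and 563 CPM in the periportal zone and 54.4, 26.4 and 61.7 CPM in the pericentral zone. Without cluster 16 its ratio in MASLD was -1.11. Cyp2a12 was periportal in each library at -1.58, -1.23 and -1.26, and at -0.29 in MASLD without cluster 16. Cyp2a4 was periportal in MASLD, with 22.2, 23.0 and 8.86 CPM over the zones, and in Aza-TdC, with 30.9, 24.3 and 9.73 CPM. Its zone ratios there were -1.32 and -1.67, against 2.88 and 2.80 for its close copy Cyp2a5, so the levels of the copies ran in opposite directions along the lobule. The MASLD call of Cyp2a4 was lost without cluster 16, at -0.01. Cyp2u1 was called periportal in MASLD, but lost the call under 8 alternatives, among them leaving out cluster 16, at -0.67.

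Most Cyp2d and Cyp2j members with many UMIs passed no zone call. Cyp2d22 lay at 0.05, 0.01 and -0.03, Cyp2j5 at -0.32, -0.50 and -0.47, and Cyp2d9, which passed the call in SD, at 1.02, 0.72 and 0.97. Cyp3a25, with the most UMIs of all members, passed no zone call either, at 0.37, 0.37 and 0.69.

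The share of nuclei with a UMI was compared after thinning each nucleus to 1500 UMIs. Cyp2b9 was found in 3.84% (3.39 to 4.32) of SD, 13.4% (12.6 to 14.3) of MASLD and 18.2% (17.2 to 19.1) of Aza-TdC hepatocyte nuclei, against 10.8%, 30.5% and 38.2% unthinned. In endothelial-like nuclei, which should lack it, the thinned share was 0% (0 to 3.16), 3.45% and 2.70%, below the hepatocyte share in each library. Median depth was 2095, 1796 and 1627 UMIs in those nuclei and 5947, 6426 and 6794 UMIs in hepatocyte nuclei.

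For Cyp3a11 the thinned hepatocyte share was 14.0%, 26.5% and 43.6%, beside 11.3%, 20.7% and 32.4% of endothelial-like nuclei. In SD the share of macrophage-like nuclei was higher still, at 22.6% of only 31 nuclei. Shares alone therefore do not tell Cyp3a11 of SD hepatocyte nuclei from background. Its zone ratio in SD was 1.25 (1.14 to 1.36), and its SD level is the base of the ratio of 1.35 for MASLD to SD. The part of background in that level was not tested. Cyp2a4 was found in 0.0292%, 2.45% and 2.73% of thinned hepatocyte nuclei, against 0.0438%, 8.45% and 10.7% unthinned. Its thinned share in endothelial-like nuclei was 0%, 3.45% (0.947 to 8.59) and 2.70% (0.561 to 7.70). At this depth the share of hepatocyte nuclei with Cyp2a4 was therefore not distinguishable from that background in MASLD or Aza-TdC, and which cells held the transcript cannot be told apart by shares.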

How the data were processed

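Per the labels' protocols, nuclei came from 120 mg of frozen liver and went through 10x Genomics 3' chemistry. Cell Ranger 6.1.2 made the count tables that the authors deposited, per the file headers, and these hold unscaled UMI counts for each gene in each nucleus. The submitters' processing notes also list Seurat 4.4.0 and the builds GRCm38 and mm10. The sources used here do not give the annotation release, whether introns and strand entered the counting, or whether free RNA or doublets were removed. Groups came from the labels, with 1 library each, so no test between groups was run.

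Kept nuclei had 500 UMIs or more, 300 genes or more and a mitochondrial share of 5% or less. Doublets were not removed; leaving out the deepest 6% was an alternative. Members and lists were chosen with earlier results of these data known, and the naming limits for clusters were adjusted after clusters were seen. Clusters used 3000 variable genes without members, 30 principal components, 15 neighbours and Leiden resolution 1 (scanpy 1.11.5 with igraph 0.11.9, run in Python 3.11.15 with scipy 1.17.1, numpy 2.4.6, scikit-learn 1.9.0 and pandas 2.3.3, and drawn in matplotlib 3.10.9). Of 20 clusters, a cluster took another class at a median marker log2 ratio of 4 or more, stayed unnamed at 3 to 4, and was otherwise hepatocyte if at least 3 hepatocyte markers stood at 0.25 of their highest level. Cluster 10, with a median of 1164 UMIs, was left unnamed as too shallow. Counts were summed over hepatocyte nuclei and scaled to CPM. Levels have exact Poisson, ratios exact conditional binomial, shares Clopper-Pearson and differences of zone ratios normal approximate intervals, the last for members with at least 5 UMIs in each zone group. Under alternatives those intervals combine the intervals of both zone ratios. The ratio was also run on simulated Poisson counts. These follow the counting model of the intervals and hold no variation between libraries, so they check the calculation only. PCR copies were collapsed by UMI, and intervals cover counting error only.

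The zone score was the mean within-library z score of pericentral minus that of periportal markers found in at least 1% of nuclei. Named in full were the 10 members highest in SD, the 8 highest and 8 lowest ratios of MASLD to SD and the 6 highest and 6 lowest of Aza-TdC to MASLD with at least 50 UMIs, and listed members. Spans are of the GRCm38 annotation. Spans of 8 members overlap another annotated gene on the same strand, among them Cyp2c29 and Cyp2d9 with pseudogenes, and 8 on the opposite strand, among them Cyp2f2, so their reads may be shared, as may those of close copies. Columns left unused numbered 0.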

Additional observations from a re-analysis of the deposited data

Results flagged for a closer look

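Given here are 4 members with a ratio between libraries above 0 at a lobule end and below 0 at the other. Both counting intervals excluded 0. These members are examples and not a full count, as others may meet the same rule. The difference between ends has a counting interval and was not tested over replicates, as each group is 1 library. Cyp2b9 stood at 1.95 in the periportal and -0.37 in the pericentral zone for Aza-TdC to MASLD, and the difference of zone ratios was -2.32 (-2.46 to -2.17). For MASLD to SD, Cyp2c37 stood at -1.27 in the periportal and 0.60 in the pericentral zone, and Cyp2c50 at -2.08 and 0.42, with differences of 1.87 (1.58 to 2.16) and 2.50 (2.15 to 2.85). Cyp2f2 ran the other way, at 0.11 in the periportal and -1.05 in the pericentral zone, a difference of -1.15 (-1.34 to -0.97) that was 1.91 (1.77 to 2.05) without cluster 16.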

How the results depend on the processing

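Results were recomputed under up to 14 alternatives to the filters, clusters, class, scaling, minimum counts, depth and zone score, with 2 of them chosen after seeing the data. The zone difference of Cyp2f2 changed sign without cluster 16, to 1.91 for MASLD minus SD (main -1.15) and to -2.06 for Aza-TdC minus MASLD (main 0.98), and that of Cyp2c38 for MASLD minus SD was -0.32 with pericentral markers alone (main 1.23). No other called value changed sign. Without cluster 16 the uncalled ratios of Cyp2e1, Cyp2f2 and Cyp2d9 in both comparisons, of Cyp2a12, Cyp2c37, Cyp2c67 and summed Cyp2c for MASLD to SD, and of Cyp2c39 for Aza-TdC to MASLD changed sign with intervals excluding 0. MASLD then lacks most of its pericentral nuclei while SD and Aza-TdC keep theirs. Values without cluster 16 are therefore no check of a ratio at a like mix of zones. The log2 ratio of summed members lay between 0.11 and 0.44 for MASLD to SD (main 0.37) and between 0.36 and 0.68 for Aza-TdC to MASLD (main 0.42). Members higher in MASLD than in SD numbered 7 to 11 (main 10) and members lower 6 to 8 (main 7). The 7 came without cluster 16, with 8 lower. Members higher in Aza-TdC than in MASLD numbered 4 to 7 (main 6). Members lower in Aza-TdC than in MASLD numbered 0 to 3 (main 2). They numbered 0 with a minimum of 100 UMIs, 0 at a mitochondrial share of at most 0.0811% and 1 without the 6% deepest nuclei. Without cluster 16 Cyp2u1 was called lower as well, at -1.05 (-1.23 to -0.87) against -0.80 in the main result. The summed zone ratio in Aza-TdC, 1.09, was 0.94 after thinning to 1500 UMIs and 0.77 with pericentral markers alone, under the limit of 1 in both. That in MASLD, 0.87, was 1.01 with 5 zone groups in place of 3. The median of members for MASLD to SD lay between -0.05 and 0.12. Among ratios of single members and subfamilies, 7 calls were lost and 5 gained without cluster 16. Where the cause is not in the construction of the alternative, the cause was not tested. No paired analysis was possible because each group has 1 library. Depth limits calls to members with about 20 UMIs or more, and the number of animals behind each library limits every comparison.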
